A study of Mus musculus with 547 samples.

Results

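The last day of the fetal liver time course, from E17.5 to E18.5, was described in bulk RNA of DLK+ cells from mouse embryos. The comparison holds 4 libraries, numbered 1 and 2 at each stage, which were chosen by the stage in their labels. They belong to 18 bulk libraries over 9 stages, and the whole series has 547 samples, of which 529 are single cells. Each library was made from poly(A) RNA of about 200000 liver cells sorted for DLK1, and no treatment or genetic change is named for either stage. The labels give both stages the same mixed cell type, hepatoblast or hepatocyte. The strain, the sex, the number of livers per library and whether libraries came from separate litters are not given in the sources used here, so p-values measure only the spread between these libraries, which may be technical. Per the series description, the bulk time course serves to find when hepatoblasts turn into hepatocytes.

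Hepatoblasts are the dividing progenitors of hepatocytes and of the cholangiocytes that line bile ducts. Before birth hepatocytes leave the cell cycle and turn on genes that a newborn needs once the placenta no longer supplies glucose and clears waste: genes of gluconeogenesis, bile formation, detoxification, plasma protein secretion and fat oxidation. DLK1, the surface protein used for the sort, is high on hepatoblasts and low in the adult liver. Since bulk RNA averages over all sorted cells, fewer cells of a type and less RNA per cell cannot be told apart in any result given here.

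The 4 libraries held 14385574 to 20076536 reads assigned to genes. Levels are given as normalised read counts relative to library size (CPM) after TMM scaling. The label was borne out by albumin: Alb stood at 242000 and 211100 CPM at E17.5 and at 275800 and 235500 CPM at E18.5. Markers of other liver and blood cells were low beside the summed hepatocyte markers of 312000 to 419000 CPM. The highest such sum at these stages was 614 CPM, for granulocyte genes in E18.5 library 2, and Cd3e of T cells had no reads. This library also had the highest sums for endothelial, mesothelial and cholangiocyte genes, with 221, 9.67 and 193 CPM against 116 to 155, 1.18 to 3.54 and 107 to 136 CPM in the other libraries of the comparison. For megakaryocyte, mast cell and lymphocyte genes its sum was 26.3 CPM against 8.78 to 9.7 CPM in the others. Of the 9 marker lists, macrophage, endothelial, hepatocyte and cholangiocyte lists had 1, 1, 1 and 2 called members, all rising, and the other 5 had none, at an unadjusted p below 0.05 and in DESeq2 as well. Members of several of these lists were nevertheless mostly higher at E18.5: 11 of 11 macrophage genes (median log2 change 1.59), 10 of 12 endothelial genes (1.24), 8 of 10 cholangiocyte genes (0.74) and 11 of 11 granulocyte genes (0.53). So were 9 of 10 hepatocyte, 5 of 6 mesothelial and 6 of 8 megakaryocyte, mast cell and lymphocyte genes. Erythroid genes split into 4 higher and 7 lower (−0.28), and stellate and mesenchymal genes into 8 higher and 6 lower (0.575). The median over all tested genes was 0.01. DESeq2 called 4 macrophage, 2 endothelial and 4 cholangiocyte genes. Without the filter on low counts edgeR called 7 macrophage, 4 cholangiocyte, 4 endothelial, 3 stellate and 2 granulocyte genes as higher, and 2 erythroid, 1 endothelial and 1 stellate gene as lower. Among the cholangiocyte genes Spp1, which encodes osteopontin, measured 17.3 and 11.2 CPM at E17.5 and 25.5 and 84.5 CPM at E18.5. Its call in edgeR was lost without E18.5 library 2 (adjusted p = 0.50), E17.5 library 1 (0.12) or E17.5 library 2 (0.21). Clec4f, the called macrophage gene, likewise lost its call without either E17.5 library or E18.5 library 2. The calls of the endothelial gene Stab2 and the cholangiocyte gene Sox9 were lost without any 1 of the 4 libraries. The part of these other cell types in the results below was not tested.

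**Figure D1:**
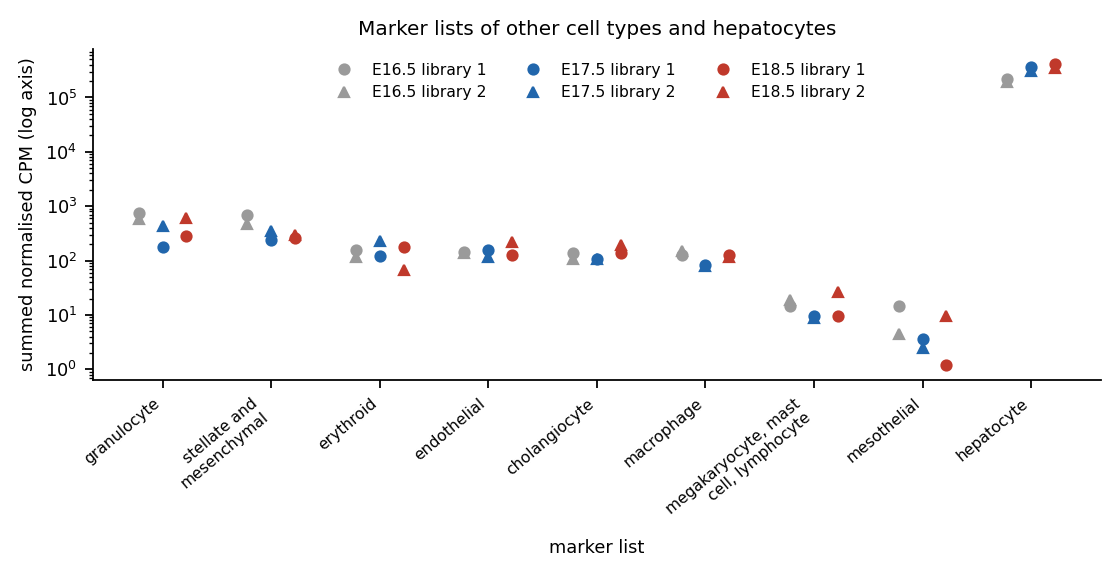
Summed CPM on a log axis of the genes of 9 cell type marker lists in the E16.5, E17.5 and E18.5 libraries, each point being 1 library. Hepatocyte genes exceed every other list by more than 2 orders of magnitude. E18.5 library 2 is the higher E18.5 library for granulocyte (614 CPM), endothelial (221 CPM), cholangiocyte (193 CPM) and mesothelial (9.67 CPM) genes. The same holds for megakaryocyte, mast cell and lymphocyte genes (26.3 CPM).

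Of 15275 genes tested, 1148 (7.52%) changed between E17.5 and E18.5 at an adjusted p below 0.05 in edgeR's quasi-likelihood test, whose spread came from all 18 bulk libraries. Of these, 470 rose (3.08%) and 678 fell (4.44%). The median log2 change over all tested genes was 0.01. Falls were more frequent in this fit, but when only the 4 libraries were fitted 312 genes rose and 233 fell. By fitted size, 110 genes rose and 90 fell by at least 4-fold, and 44 rose and 18 fell by at least 8-fold. These counts include genes without reads at 1 stage, whose fitted size depends on the prior count. Of the 1148 changed genes, 1098 had reads at both stages. In each of the 1148 genes both libraries of one stage lay beyond both libraries of the other. Since the call rests on these same libraries, this separation is nearly given by it and adds no support. With 1 of the 4 libraries left out the total was 421 to 751, the lowest without E18.5 library 1. Of the 122 changed genes that the naming rule picks, 59 kept their call whichever library was left out. They lead the account below, and for the others whose change over the last day is described the highest adjusted p with 1 library left out is given with that library.

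**Figure D2:**
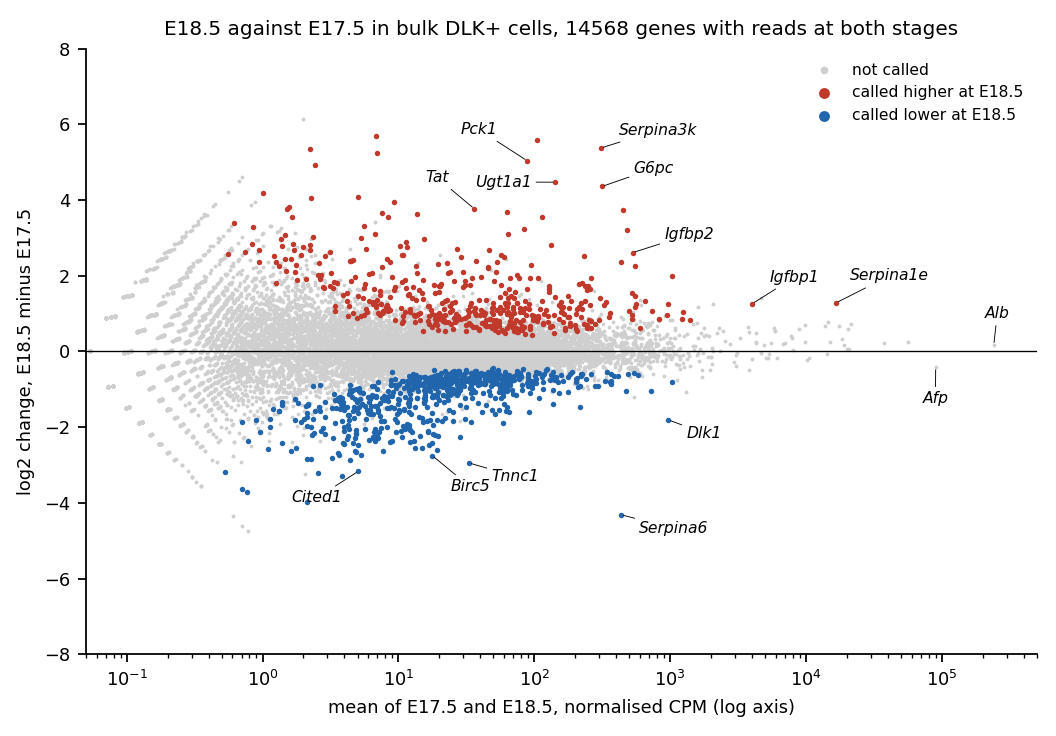
Mean CPM over the 4 libraries (log axis) against the log2 change from E17.5 to E18.5 for the 14568 tested genes with reads at both stages, with risen genes in red and fallen genes in blue. Pck1, G6pc and Ugt1a1 lie more than 4 log2 units above 0, and Serpina6 lies 4.32 log2 units below it.

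The glucose-producing enzymes were among the genes that rose most. Pck1 (chromosome 2, 173153048-173159273, plus strand, GRCm38), which encodes the cytosolic enzyme that commits oxaloacetate to gluconeogenesis, measured 5.05 and 5.35 CPM at E17.5 and 136 and 206 CPM at E18.5. Its log2 change was 5.04 ± 0.52 (SE, n = 2 libraries per stage, edgeR adjusted p = 8.1e-05). G6pc (chromosome 11, 101367561-101377903, plus strand), whose product releases free glucose in the last step of the pathway, measured 17.1 and 41.7 CPM at E17.5 and 507 and 700 CPM at E18.5. The change was 4.36 ± 0.50 on the log2 scale (edgeR adjusted p = 0.00021). For both genes the lowest E18.5 library was more than 10 times the highest E17.5 library, and per kilobase of gene length G6pc was the higher of the pair at E18.5, with 250 against 62.8 CPM per kb. Of 14 gluconeogenesis and glycogen genes, 3 rose and none fell, with a median log2 change of 0.34. The third, Ppp1r3c, which targets a phosphatase to glycogen, measured 62.6 and 61.3 CPM and then 189 and 198 CPM, and its adjusted p rose to 0.12 with 1 library left out (each of the 4 ended the call). The other 11 did not pass the test, and 11 of the 14 were higher at E18.5.

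The promoters of Pck1 and G6pc are shown because these genes moved over the same day from low levels. Each stretch holds the 250 bases before the gene's first transcribed base as RefSeq annotates it on GRCm38.p6, written along the gene's own strand. Capitals mark matches on either strand. They mark TGACG, which is the core of the cAMP response element. They also mark the TATA box as TATAAA and the core of the site of the liver factor HNF1 as GTTAAT. The last motif marked is the CCAAT box. The Pck1 stretch is chr2:173152823-173153072, plus strand, and the G6pc stretch is chr11:101367466-101367715, plus strand. The gene positions given above come from another annotation, GENCODE, and begin inside these stretches. Distances to the start therefore hold for the RefSeq starts only.
Pck1: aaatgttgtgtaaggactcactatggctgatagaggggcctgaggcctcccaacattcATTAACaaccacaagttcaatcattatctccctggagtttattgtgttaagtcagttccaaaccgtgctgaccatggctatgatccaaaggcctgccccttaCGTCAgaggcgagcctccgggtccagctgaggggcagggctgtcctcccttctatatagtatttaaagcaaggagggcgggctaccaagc
G6pc: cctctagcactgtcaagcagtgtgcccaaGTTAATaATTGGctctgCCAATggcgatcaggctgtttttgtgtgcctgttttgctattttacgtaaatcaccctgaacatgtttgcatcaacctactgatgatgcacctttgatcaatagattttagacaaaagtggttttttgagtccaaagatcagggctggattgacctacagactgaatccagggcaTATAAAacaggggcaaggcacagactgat
The Pck1 stretch holds TGACG on the reverse strand 86 to 90 bases before the start and GTTAAT on the reverse strand at 187 to 192 bases. G6pc has TATAAA 24 to 29 bases before the start, GTTAAT at 216 to 221 bases and a pair of CCAAT boxes at 200 to 204 and 210 to 214 bases. Of all 32851 RefSeq promoters of this length, 17.8% hold TGACG, 6.43% GTTAAT, 12.4% TATAAA and 33.8% CCAAT. These matches describe the letters only.

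Tat, the tyrosine aminotransferase that opens tyrosine breakdown and is a classical marker of the perinatal liver, rose with them. The gene (chromosome 8, 109990437-109999803, plus strand) measured 5.46 and 4.34 CPM at E17.5 and 63.2 and 71.0 CPM at E18.5, a log2 change of 3.77 ± 0.32 (edgeR adjusted p = 1.5e-05). The stages did not overlap. Of 23 amino acid breakdown genes 3 rose and none fell, with a median of 0.29. The other 2 that rose had wider scatter. Bhmt, which remethylates homocysteine, measured 498 and 341 CPM at E17.5 but 2512 and 804 CPM at E18.5, and lost its call without E17.5 library 1, E17.5 library 2 or E18.5 library 1 (adjusted p up to 0.29). Tdo2, which opens tryptophan breakdown, went from 0 and 0.202 CPM to 4.53 and 4.28 CPM, and its adjusted p of 0.010 rose to 0.11 with 1 library left out (E17.5 library 1, E17.5 library 2 and E18.5 library 1 each ended the call). None of the 8 urea cycle genes passed the test. Cps1, the entry enzyme of that cycle, measured 2537 and 2576 CPM and then 8060 and 5620 CPM, a log2 change of 1.42 ± 0.57 (edgeR adjusted p = 0.15).

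Cytochrome P450 enzymes, which oxidise steroids, fatty acids and foreign compounds, made up the pathway list with the most rises. Of 20 tested, 11 rose and none fell, with a median log2 change of 1.45, and 9 rose whichever library was left out. Cyp2c37 (chromosome 19, 39992424-40012243, plus strand), which oxidises arachidonate, measured 18.3 and 17.6 CPM at E17.5 and 216 and 206 CPM at E18.5. Its log2 change was 3.56 ± 0.25 (edgeR adjusted p = 2.8e-06), and both libraries of each stage nearly coincided. Cyp2e1, which oxidises ethanol and ketone bodies, went from 89.6 and 97.3 CPM to 1103 and 636 CPM, by 3.22 ± 0.39 (edgeR adjusted p = 0.00021). Here the E18.5 libraries differed from each other, but both stood far above E17.5.

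Further P450 enzymes of different families rose by like amounts. Cyp4a14 and Cyp4a10, fatty acid omega-hydroxylases known as targets of the receptor PPAR alpha, changed by 3.23 ± 0.27 and 2.21 ± 0.25 on the log2 scale. Cyp4a14 measured 14.1 and 18.4 CPM and then 146 and 160 CPM, and Cyp4a10 measured 18.1 and 14.4 CPM and then 81.9 and 68.7 CPM. Cyp3a25, a steroid and drug hydroxylase, measured 11.9 and 6.16 CPM and then 151 and 81.1 CPM, and Cyp2j5 measured 14.9 and 10.2 CPM and then 83.7 and 75.5 CPM. Cyp2c69, a member of the same chromosome 19 cluster as Cyp2c37, rose from 69.7 and 54.5 CPM to 803 and 858 CPM, by 3.74 ± 0.24 (edgeR adjusted p = 1.4e-06). Cyp2c54 had only 5 reads in both E17.5 libraries together and reached 15.9 and 11 CPM at E18.5. Its call (edgeR adjusted p = 0.0041) was not made by DESeq2. The Cyp2c, Cyp3a and Cyp4a genes lie in clusters of close copies, and how reads matching several copies were counted is not given in the sources used here, so the split of reads within each cluster is uncertain.

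Conjugating enzymes, which attach glucuronate, sulfate or glutathione, moved in both directions. Ugt1a1, the enzyme that conjugates bilirubin, measured 10.7 and 13.8 CPM at E17.5 and 329 and 215 CPM at E18.5, a log2 change of 4.47 ± 0.30 (edgeR adjusted p = 6.1e-06). It is annotated at chromosome 1, 88211959-88218997, plus strand, and shares its last exons with the other Ugt1a genes, so its reads are uncertain between them. Of 16 conjugation genes 2 rose and 3 fell, with a median of 0.26. Sult1d1, a sulfotransferase, also rose, from 40.1 and 56.8 CPM to 144 and 99.7 CPM (adjusted p up to 0.20 without E17.5 library 1, E17.5 library 2 or E18.5 library 1). Ugt2b36, a glucuronosyltransferase, fell from 92.7 and 102 CPM to 28.8 and 35.7 CPM, by 1.6 on the log2 scale, and its adjusted p was 0.050 without E18.5 library 1. The glutathione transferase Gstt1 fell from 722 and 558 CPM to 374 and 244 CPM and Gstm1 fell from 490 and 452 CPM to 309 and 289 CPM. Both lost their call with 1 library left out, at adjusted p-values up to 0.22 and 0.090 (without E17.5 library 1 or E18.5 library 2 for both, and without E17.5 library 2 for Gstt1 and E18.5 library 1 for Gstm1).

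**Figure D3:**
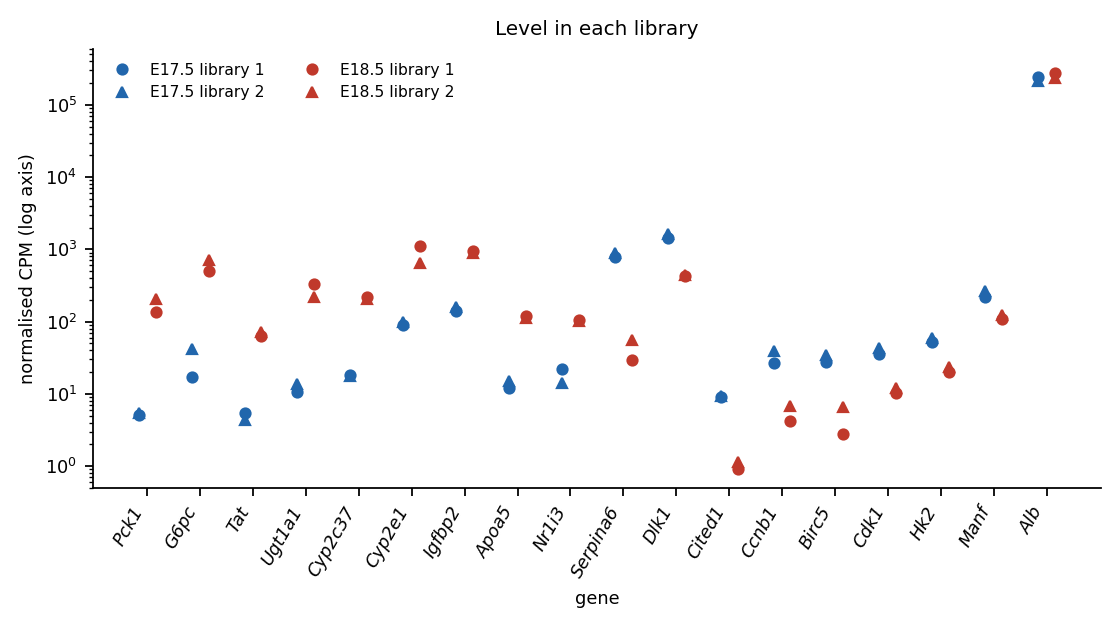
CPM on a log axis in each library for 18 genes, with E17.5 in blue and E18.5 in red, circles for library 1 and triangles for library 2. For each gene other than Alb, all of them called from these same libraries, both libraries of one stage lie on the same side of both libraries of the other.

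Genes that move bile acids, bile lipids and organic anions across the hepatocyte membrane rose in 6 of 10 cases, and none fell (median log2 change 1.31). Slco1a1, an uptake carrier for organic anions, was close to absent at E17.5 with 0.404 and 0.303 CPM and reached 7.43 and 19.9 CPM at E18.5 (log2 change 5.24 ± 0.76, edgeR adjusted p = 0.0010). Abcb4, which exports phosphatidylcholine into bile, rose from 133 and 131 CPM to 304 and 291 CPM, by 1.17 ± 0.17 (edgeR adjusted p = 0.00096). The bile salt export pump Abcb11 rose from 269 and 268 CPM to 875 and 697 CPM, by 1.55 ± 0.33, at an edgeR adjusted p of 0.010 that rose to 0.084 with 1 library left out (E17.5 library 1, E17.5 library 2 and E18.5 library 1 each ended the call). Slco1b2, another uptake carrier, rose from 75.8 and 63.1 CPM to 527 and 267 CPM, with an adjusted p of 0.052 without E18.5 library 1. Abcc2, the canalicular pump for conjugated bilirubin, measured 328 and 414 CPM and then 740 and 606 CPM, and Abcg5, part of the sterol exporter, 1.42 and 1.51 CPM and then 8.61 and 6.98 CPM. Both calls were lost without E17.5 library 1 or E18.5 library 1 (adjusted p up to 0.14 and 0.073), that of Abcg5 also without E17.5 library 2. The list count was 3, 4, 2 and 6 without E17.5 library 1, E17.5 library 2, E18.5 library 1 and E18.5 library 2.

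Bile acid synthesis followed the same direction with less certainty. Cyp7a1, the rate-limiting enzyme, measured 88.3 and 146 CPM at E17.5 and 509 and 259 CPM at E18.5 (log2 change 1.72 ± 0.37, edgeR adjusted p = 0.010, up to 0.15 without E17.5 library 1 or E18.5 library 1). Cyp8b1, which sets the share of cholic acid, measured 61.3 and 68.9 CPM and then 245 and 141 CPM, and Cyp27a1, which oxidises the sterol side chain, 98.4 and 58.4 CPM and then 205 and 127 CPM. Of 9 genes these 3 rose and none fell. The call of Cyp8b1 was lost without any 1 library (adjusted p up to 0.33) and that of Cyp27a1 without E17.5 library 2 or E18.5 library 1 (up to 0.28). The list count was 1 without E17.5 library 1 and without E17.5 library 2, 0 without E18.5 library 1 and 2 without E18.5 library 2. In all of them library 1 was the higher of the E18.5 libraries.

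Hormone and growth factor signalling gained several parts of the growth hormone and insulin-like growth factor (IGF) axis. Igfbp2, which binds IGFs in plasma, measured 140 and 159 CPM at E17.5 and 952 and 881 CPM at E18.5, a log2 change of 2.61 ± 0.23 (edgeR adjusted p = 1.7e-05). Igf1, the growth factor that mediates growth hormone action after birth, rose from 2.73 CPM in both E17.5 libraries to 25.1 and 15.1 CPM, by 2.88 ± 0.49 (edgeR adjusted p = 0.0023). Igf2, the fetal member of the pair, did not pass the test, with 13440 and 13970 CPM and then 17540 and 14900 CPM, and per kilobase of gene length its mean level at E18.5 was 3430 CPM per kb against 2.85 CPM per kb for Igf1. Prlr, the prolactin receptor, rose from 46.4 and 74.0 CPM to 206 and 191 CPM, by 1.72 ± 0.29 (edgeR adjusted p = 0.0021). Of 21 genes of the axis and of hormone receptors, 5 rose and none fell, with a median of 0.46, and 3 or 4 rose with 1 library left out. The leptin receptor Lepr went from 7.58 and 11.2 CPM to 41.2 and 22.8 CPM and Socs2, a feedback inhibitor of growth hormone signalling, from 28.9 and 42.2 CPM to 76.4 and 95.9 CPM. Both of these lost their call without E17.5 library 1, E17.5 library 2 or E18.5 library 1, Socs2 also without E18.5 library 2 (adjusted p up to 0.22 for each). In the list of glucagon and cAMP response genes 1 of 10 rose: Igfbp1, a plasma IGF binding protein that fasting raises, with 2311 and 2420 CPM and then 4876 and 6439 CPM (adjusted p 0.023, up to 0.13 with 1 library left out, where each of the 4 ended the call).

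Secreted plasma proteins changed gene by gene. The protease inhibitor Serpina3k measured 16 and 13.2 CPM at E17.5 and 450 and 763 CPM at E18.5 (edgeR adjusted p = 1.4e-06), and Serpina3m measured 4.75 and 3.74 CPM and then 269 and 139 CPM (log2 change 5.58 ± 0.45, edgeR adjusted p = 1.6e-05). Both genes are annotated from the same start on chromosome 12 (104338486-104346144 and 104338486-104394257, plus strand) and belong to a family of close copies, so their reads cannot be told apart with certainty. Mug1, which encodes a broad protease inhibitor of the alpha-2-macroglobulin family, had no reads at E17.5 and 44.5 and 25.9 CPM at E18.5, at least 116-fold higher if each E17.5 library is set to a floor of 3 reads, which covers counting error only. Its call in edgeR (adjusted p = 0.00094) was not made by DESeq2 (adjusted p = 0.28). Its close copy Mug2 makes the assignment of these reads uncertain as well.

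Among apolipoproteins, Apoa5, an activator of triglyceride clearance, rose from 11.9 and 14.8 CPM to 118 and 111 CPM (log2 change 3.09 ± 0.30, edgeR adjusted p = 5.2e-05). Apoc3, which slows that clearance, rose from 40.5 and 23.5 CPM to 206 and 108 CPM (2.30 ± 0.33 with adjusted p = 0.00089 in edgeR). Of 24 plasma carriers and apolipoproteins 5 rose and 1 fell, with a median of 0.23. Fabp1 (629 and 653 CPM, then 1129 and 1352 CPM), Fetub (376 and 283 CPM, then 922 and 658 CPM) and Apoa4 (2.93 and 3.43 CPM, then 20.1 and 16.9 CPM) lost their calls without either E17.5 library, Fabp1 also without E18.5 library 2, Fetub without E18.5 library 1 and Apoa4 without either E18.5 library, at adjusted p-values up to 0.099, 0.21 and 0.14. Without E17.5 library 1 or E17.5 library 2 the list held 2 rises, and without E18.5 library 1 or 2 it held 3. Mbl2, the lectin that starts complement activation on microbial sugars, rose from 26 and 33.1 CPM to 128 and 111 CPM (2.02 ± 0.29, edgeR adjusted p = 0.00081). Complement genes otherwise moved in both directions, with C8a rising and C8g falling, so that 2 of 12 rose and 1 fell. Of 19 coagulation genes F9 alone passed, and of 15 acute phase and iron genes Tfr2 rose and Saa4 fell. These 5 calls were lost without E18.5 library 1 and, for each gene, without at least 1 E17.5 library, at adjusted p-values of 0.10, 0.28, 0.29, 0.23 and 0.14 at most.

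Albumin and alpha-fetoprotein did not pass the test. Alb had a log2 change of 0.17 ± 0.38 (edgeR adjusted p = 0.84). Afp, the fetal counterpart of albumin, measured 103700 and 102900 CPM at E17.5 and 81060 and 72780 CPM at E18.5, with an edgeR adjusted p of 0.49.

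Of 23 liver transcription factors 4 rose and none fell, with a median of 0.24. Nr1i3, the receptor CAR that induces drug-metabolising enzymes, measured 22.2 and 14 CPM at E17.5 and 104 and 100 CPM at E18.5 (2.49 ± 0.35 on the log2 scale, edgeR adjusted p = 0.00075). The other 3 were Nr0b2, the bile acid-induced repressor SHP (1.11 and 0.606 CPM, then 5.17 and 4.73 CPM), Nr1h4, the bile acid receptor FXR (92.6 and 66.8 CPM, then 170 and 144 CPM), and Hhex (57.6 and 58.5 CPM, then 87.6 and 90.7 CPM). Their calls were lost without E17.5 library 2 or E18.5 library 1, and those of Nr1h4 and Hhex also without either other library (adjusted p up to 0.11, 0.24 and 0.088). Without E17.5 library 2 or E18.5 library 1 only Nr1i3 of the 4 passed, and without either other library Nr1i3 and Nr0b2 did. The lineage factors Hnf4a and Cebpa did not pass the test, with 564 and 582 CPM and then 771 and 829 CPM for Hnf4a and 417 and 445 CPM and then 399 and 485 CPM for Cebpa.

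Fat oxidation genes rose in part. Cpt1a, which lets long-chain fatty acids into mitochondria, rose from 122 and 144 CPM to 339 and 334 CPM (1.34 ± 0.19, edgeR adjusted p = 0.00085). Angptl4, a secreted lipase inhibitor induced by fasting, rose from a mean of 71.3 CPM to a mean of 133 CPM without overlap (edgeR adjusted p = 0.0053). Of 22 genes of the list 5 rose, none fell and the median was 0.40. Vnn1, a pantetheinase, and Plin2, a lipid droplet coat protein, were among those that rose. Their levels were 35 and 34 CPM and then 73.2 and 82.6 CPM for Vnn1 and 154 and 153 CPM and then 225 and 270 CPM for Plin2. Their calls did not hold without E17.5 library 1, E17.5 library 2 or E18.5 library 2 (adjusted p up to 0.067 and 0.13), and 3 of the 22 then rose. Of 23 sterol and fatty acid synthesis genes, none rose and 2 fell: Mvk and Mvd, enzymes of the mevalonate pathway, which went from 78.9 and 68.4 CPM to 36.9 and 38.9 CPM and from 122 and 111 CPM to 54.2 and 70 CPM. Both calls were lost without any 1 library, at adjusted p-values up to 0.13 and 0.24.

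Genes of both metabolic zones of the lobule were among the rises. Glul, the glutamine synthetase that marks hepatocytes around the central vein, rose from 454 and 504 CPM to 1049 and 942 CPM (1.06 ± 0.17, edgeR adjusted p = 0.0020), as did the pericentral gene Cyp2e1 described above. On the periportal list Pck1 and Cyp2f2 rose, the latter from 33.4 and 21.4 CPM to 103 and 107 CPM with a call that any 1 library left out ended (adjusted p up to 0.19), and 2 of 10 genes of each list passed the test. The periportal median was 0.42 and the pericentral median 0.88. The sort does not keep position, and bulk RNA does not show whether the same cells hold both sets of messages.

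**Figure D4:**
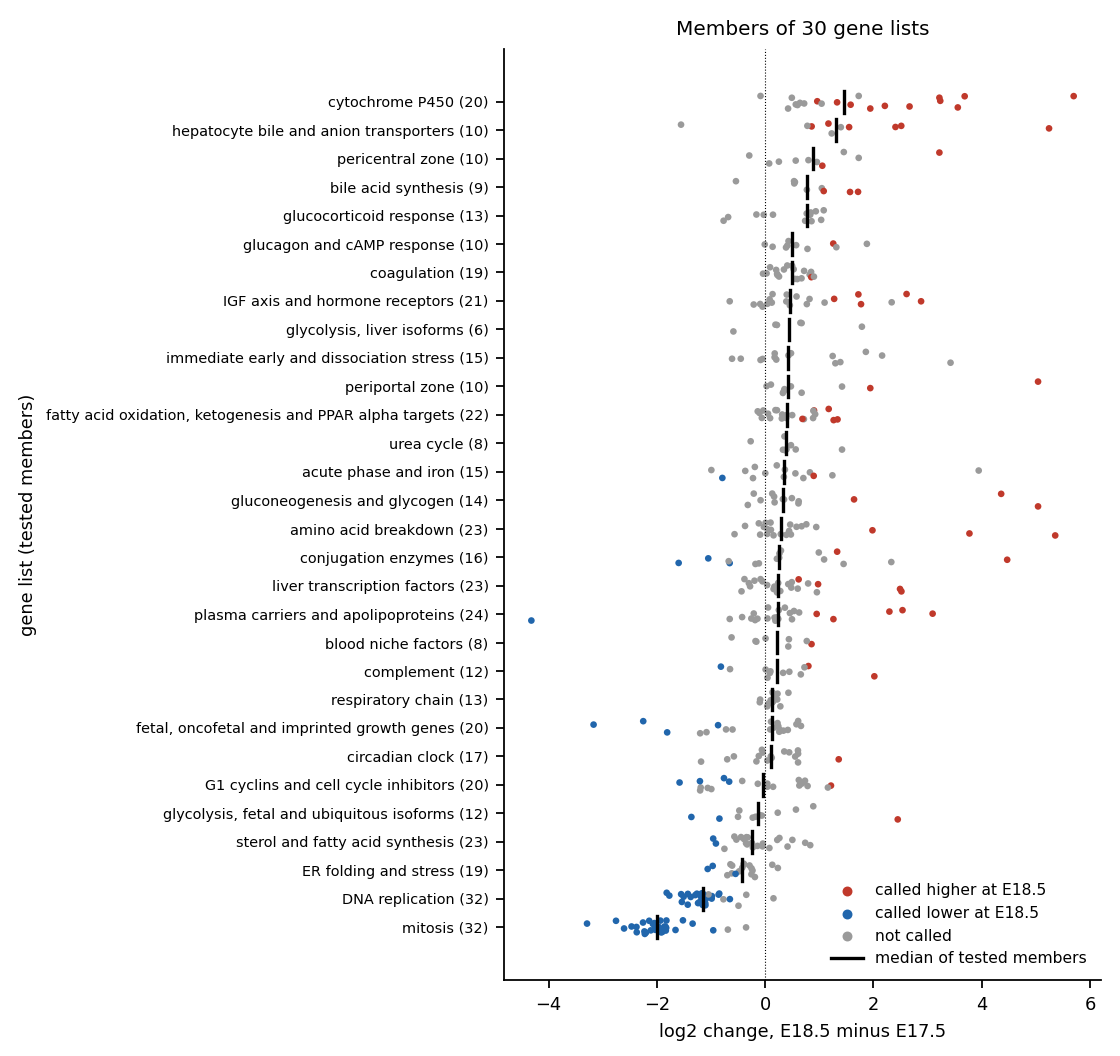
Log2 change from E17.5 to E18.5 of the tested members of 30 pathway lists, each point being 1 gene and each black bar a list median; Chac1, without reads at E18.5, is not drawn. The mitosis and DNA replication medians lie at −1.99 and −1.15, and the P450 and transporter medians at 1.45 and 1.31.

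The falls were led by the cell cycle. Of 32 mitosis genes 30 fell and none rose, with a median log2 change of −1.99 and 24 to 30 falls when 1 library was left out. Birc5, which encodes the chromosomal passenger protein survivin, measured 27.6 and 34.1 CPM at E17.5 and 2.81 and 6.53 CPM at E18.5, a change of −2.75 ± 0.30 (edgeR adjusted p = 0.00010). Ccnb1 and Ccnb2, the B-type cyclins, measured 26.3 and 39.5 CPM and 23.6 and 33.5 CPM at E17.5. At E18.5 Ccnb1 was at 4.17 and 6.75 CPM and Ccnb2 at 3.72 and 6.75 CPM (edgeR adjusted p = 0.00019 and 6.0e-05). Cdk1, their kinase partner, fell from 35.4 and 43.5 CPM to 10.2 and 11.9 CPM, by 1.84 on the log2 scale (SE 0.19, edgeR adjusted p = 7.5e-05). Cdc25c, the phosphatase that activates Cdk1, was close to absent at E18.5 with 0.725 and 0.675 CPM after 6.47 and 7.37 CPM. The 2 mitosis genes that did not pass were Cenpa, the centromeric histone (29.6 and 34.3 CPM, then 15.1 and 24.8 CPM, adjusted p = 0.072 in edgeR), and Mybl2, an activator of mitotic genes (37.6 and 36.2 CPM, then 29 and 28.8 CPM, adjusted p = 0.28 in edgeR). In each of these genes both E18.5 libraries lay below both E17.5 libraries.

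The promoters of Cdk1, Ccnb1 and Ccnb2 are shown because these partners fell together and because mitotic promoters are known for spaced CCAAT boxes. As above, each stretch is the 250 bases before the RefSeq start on GRCm38.p6, along the gene's strand. Capitals mark matches on either strand. They mark the CCAAT box and, as the core of the cell cycle homology region (CHR), the letters TTTGAA. They also mark a form of the E2F site, written TTTCGCGC. The stretches are chr10:69352913-69353162 for Cdk1, chr13:100786487-100786736 for Ccnb1 and chr9:70421555-70421804 for Ccnb2, all on the minus strand.
Cdk1: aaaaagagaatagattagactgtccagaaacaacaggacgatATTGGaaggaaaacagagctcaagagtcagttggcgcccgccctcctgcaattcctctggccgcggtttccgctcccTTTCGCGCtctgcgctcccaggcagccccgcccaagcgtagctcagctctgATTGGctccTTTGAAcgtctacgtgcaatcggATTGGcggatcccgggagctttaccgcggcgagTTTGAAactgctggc
Ccnb1: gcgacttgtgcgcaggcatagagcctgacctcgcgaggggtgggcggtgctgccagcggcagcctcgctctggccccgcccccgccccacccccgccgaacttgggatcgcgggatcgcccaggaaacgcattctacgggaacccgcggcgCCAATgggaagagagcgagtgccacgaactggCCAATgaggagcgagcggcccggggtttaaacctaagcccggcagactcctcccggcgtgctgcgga
Ccnb2: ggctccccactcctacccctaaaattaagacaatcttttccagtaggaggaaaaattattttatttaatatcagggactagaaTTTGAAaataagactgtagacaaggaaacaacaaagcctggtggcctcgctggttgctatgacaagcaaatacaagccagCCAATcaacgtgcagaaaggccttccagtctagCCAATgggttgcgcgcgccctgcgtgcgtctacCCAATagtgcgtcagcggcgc
Cdk1 holds CCAAT boxes 44 to 48, 76 to 80 and 204 to 208 bases before the start, TTTGAA at 10 to 15 and 66 to 71 bases and TTTCGCGC at 124 to 131 bases. Ccnb1 holds CCAAT at 63 to 67 and 95 to 99 bases, and these letters of the CHR core are not in its window. Ccnb2 holds CCAAT at 17 to 21, 50 to 54 and 83 to 87 bases and TTTGAA at 162 to 167 bases. The nearest CCAAT boxes lie 32 bases apart in Cdk1 and Ccnb1 and 33 bases apart in Ccnb2.

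CCAAT was in 82.1% of 28 promoters found for 26 mitosis genes, in 43% of 610 promoters of the genes that fell, in 39.2% of 472 promoters of the genes that rose and in 34.9% of the 14010 promoters of tested genes. CCAAT and TTTGAA occurred together in 35.7% of the mitosis promoters, 8.52% of those of fallen genes and 3.98% of those of tested genes. TTTCGCGC was in 15.2% of 33 DNA replication promoters, 1.80% of those of fallen genes and 0.478% of those of tested genes. These shares describe the lists and were not tested.

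DNA replication genes fell alongside: 26 of 32 passed the test, none rose and the median was −1.15. Lig1, the ligase that joins lagging strand fragments, fell from 38.3 and 43.9 CPM to 14.4 and 16.2 CPM, by 1.43 on the log2 scale (SE 0.15, edgeR adjusted p = 9.8e-05). Tyms, which makes thymidylate, fell from 29.8 and 32.5 CPM to 13.3 and 14.1 CPM, and Rrm2, the inducible subunit of ribonucleotide reductase, from 62.9 and 101 CPM to 24 and 32.4 CPM. Mcm6, of the replicative helicase, fell, at 149 and 161 CPM and then 74.8 and 81.9 CPM (−0.98 ± 0.14, edgeR adjusted p = 0.00091). The number of falls was 16 without E17.5 library 2 and 13 without E18.5 library 1, against 24 and 26 without the others. Of 20 G1 cyclins and cell cycle inhibitors, 4 fell and 1 rose. Ccnd1, the cyclin of early G1, fell from 77.8 and 109 CPM to 26.6 and 35.9 CPM (adjusted p 0.0025, and 0.050 without E18.5 library 1). Cdkn1a, the inhibitor p21, rose from 36.3 and 38.7 CPM to 78.3 and 96.0 CPM (adjusted p 0.014, and up to 0.10 without E17.5 library 1, E17.5 library 2 or E18.5 library 2). Cdk4, Rbl1 and Myc were the other falls, each lost without E18.5 library 1 or E18.5 library 2 (adjusted p up to 0.20, 0.17 and 0.21 over single libraries left out).

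The largest fall among genes of at least 10 CPM was that of Serpina6, which encodes the corticosteroid-binding globulin of plasma. The gene (chromosome 12, 103646630-103657212, minus strand) measured 785 and 881 CPM at E17.5 and 29 and 54.8 CPM at E18.5, a log2 change of −4.32 ± 0.32 (edgeR adjusted p = 4.1e-06). It had stood at 5488 CPM on average at E16.5, so it fell over both days, while Serpina3k and Serpina3m on the same chromosome rose. Its mean levels from E10.5 on were 602, 2450, 4100, 5720, 5210, 5670, 5490, 833 and 41.9 CPM.

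Of 20 fetal, oncofetal and imprinted growth genes 4 fell, none rose and the median was 0.14; the members that fell were Dlk1, Cited1, Hmga2 and Igf2bp1. Dlk1 measured 1411 and 1613 CPM at E17.5 and 423 and 440 CPM at E18.5 (−1.81 ± 0.20, edgeR adjusted p = 0.00013), after a highest mean of 5970 CPM at E13.5. Its protein set the gate of the sort, so its message is measured only in cells that still carried the protein. Cited1, a transcriptional coregulator of progenitors, fell from 8.90 and 9.29 CPM to 0.906 and 1.13 CPM (−3.17 ± 0.25, edgeR adjusted p = 6.1e-06). Hmga2, an architectural chromatin protein of fetal cells, fell from 8.69 and 12.8 CPM to 2.36 and 2.14 CPM. Igf2bp1, an oncofetal RNA-binding protein, fell by 0.87 on the log2 scale, with an adjusted p up to 0.13 without E17.5 library 2 or E18.5 library 1. H19, the abundant imprinted transcript, did not pass the test (33810 and 34810 CPM, then 41720 and 38680 CPM), while the imprinted transcript Rian fell from 1087 and 853 CPM to 477 and 457 CPM (adjusted p 0.013, up to 0.11 without E17.5 library 1, E18.5 library 1 or E18.5 library 2). Rian lies in the same imprinted region as Dlk1, where not every tested transcript passed.

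Other falls belonged to secretion, signalling and sugar use. Tnnc1, the slow troponin C best known from muscle, fell from 72.2 and 45 CPM to 8.06 and 7.09 CPM (−2.95 ± 0.38, edgeR adjusted p = 0.00033). Bhlha15, the transcription factor MIST1 of secretory cells, fell from 16.4 and 24.8 CPM to 3.53 and 4.28 CPM (−2.40 ± 0.33, edgeR adjusted p = 0.00053), and the ligand Bmp7 from a mean of 10.2 CPM to 1.81 and 2.25 CPM. Hk2, the hexokinase of growing cells, fell from 51.6 and 60.1 CPM to 19.8 and 23.7 CPM (−1.36 ± 0.19, edgeR adjusted p = 0.00074). The glucose carrier Slc2a1 fell from 118 and 109 CPM to 66.1 and 60.3 CPM (adjusted p 0.0092, up to 0.072 without E17.5 library 1 or either E18.5 library). Pfkp, the platelet type of phosphofructokinase, went the other way, from 2.33 and 2.73 CPM to 13.14 and 14.51 CPM, so that of 12 fetal and ubiquitous glycolysis genes 2 fell and 1 rose.

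Endoplasmic reticulum (ER) folding and stress genes leaned downward, with 17 of 19 lower and a median of −0.42. Only 4 passed the test, and each of them lost its call without at least 1 of the libraries. Manf, a secreted ER stress protein, fell from 218 and 264 CPM to 110 and 121 CPM (adjusted p 0.0060, and up to 0.072 without E17.5 library 2 or E18.5 library 1). Creld2, another such protein, fell from 83.2 and 71.5 CPM to 42.1 and 36.9 CPM (adjusted p 0.0062, and up to 0.058 without E17.5 library 1 or E18.5 library 2). Xbp1, a transcription factor of the unfolded protein response, fell by 0.55 on the log2 scale, with an adjusted p up to 0.17 and no call without any 1 of the 4. Chac1, which degrades glutathione under stress, measured 1.01 and 0.606 CPM at E17.5 and had no reads at E18.5, at least 2.65-fold lower with the same floor of 3 reads, and its call was likewise lost without any 1 library.

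Several lists had no gene past the adjusted threshold in edgeR over this day: glucocorticoid response (13 tested, median 0.77), urea cycle (8, median 0.38), liver isoforms of glycolysis (6, median 0.43), respiratory chain (13, median 0.14) and immediate early and dissociation stress genes (15, median 0.43). Of the last, Fos, Egr1 and Jun, the first 2 of which were chosen after their values were seen, stood highest in E18.5 library 2, at 147, 272 and 330 CPM. At an unadjusted p below 0.05 these lists held 5, 2, 4, 1 and 3 genes. DESeq2 called 1, 0, 2, 1 and 0 of them, all higher at E18.5. Without the filter on low counts edgeR called 6 rises and 2 falls of glucocorticoid response genes, 1 rise in the urea cycle, 2 rises and 1 fall of liver glycolysis isoforms and 6 rises of immediate early genes. For none of these lists does the absence of calls show that levels were equal.

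The change over the last day was then compared with that over the day before, E16.5 to E17.5, in the same fit. Both comparisons share the E17.5 libraries, so a chance deviation there would move them in opposite directions. Over the day before, 900 of all 15275 genes tested rose and 1101 fell, and the counts that follow were not tested against these shares. Of the 470 genes that rose over the last day, 128 had also risen the day before, 43 had fallen and 299 had not passed the test. Of the 678 that fell, 267 had also fallen, 43 had risen and 368 had not passed. The difference between both changes passed an adjusted p of 0.05 for 197 genes (1.29%), with 56 more positive and 141 more negative over the last day. With 1 library of the 3 stages left out the count ran from 26, without E17.5 library 1, to 260, without E16.5 library 1. It was 61, 163, 106 and 94 without E17.5 library 2, E18.5 library 1, E18.5 library 2 and E16.5 library 2.

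Genes with a late rise included Pck1 and Tat. Pck1 had a mean of 3.77 CPM at E16.5 and 5.20 CPM at E17.5, so the last day exceeded the day before by 4.58 ± 0.92 on the log2 scale (edgeR adjusted p = 0.026). For Tat the difference was 3.03 ± 0.56 (edgeR adjusted p = 0.017). The calls of the difference were not kept when libraries were left out, with adjusted p-values up to 0.25 for Pck1 and 0.12 for Tat (without E17.5 library 1, E17.5 library 2 or E18.5 library 2 for both, and without E16.5 library 1 for Pck1). G6pc, by contrast, rose by like amounts on both days, from 1.37 CPM at E16.5 to 29.4 CPM at E17.5 and 603 CPM at E18.5, and its difference did not pass the test.

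In another pattern a fall turned into a rise. Cxcl12, the chemokine that holds blood stem cells in their niche, had a mean of 202 CPM at E16.5, 66.8 and 79.0 CPM at E17.5 and 142 and 122 CPM at E18.5. The difference of 2.33 ± 0.28 on the log2 scale (edgeR adjusted p = 0.00089) kept its call with each of the 6 libraries left out, whereas the rise over the last day alone lost its call without E17.5 library 1 or E18.5 library 1 (adjusted p up to 0.057). It was the only one of 8 blood niche factors that passed the test over the last day. Susd4, a complement regulator, fell from a mean of 2.34 CPM to 0.910 and 1.11 CPM and then rose to 10.2 and 9.90 CPM. Its difference of 4.51 ± 0.66 (edgeR adjusted p = 0.0030) did not pass without E17.5 library 1 (adjusted p = 0.086). Dock8, a regulator of the actin cytoskeleton best known from leukocytes, went from 23.9 CPM to 4.55 and 10.6 CPM and then 24.7 and 19.2 CPM, a rise over the last day (adjusted p 0.0085 in edgeR) that was lost without E17.5 library 1 or E18.5 library 1 (up to 0.082). Over the same days the summed macrophage markers went from 128 and 152 CPM through 84.5 and 79.1 CPM to 127 and 114 CPM, and their part in the Dock8 values was not tested.

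The opposite turn was made by Bhlha15, which rose from 6.71 CPM at E16.5 before its fall, a difference of −4.02 ± 0.51 (edgeR adjusted p = 0.0012) that kept its call with each library left out. Hsd3b1, an enzyme of steroid hormone synthesis, had 111 CPM at E16.5, 660 and 638 CPM at E17.5 and 432 and 437 CPM at E18.5. Its difference between days kept its call with each library left out, but its fall over the last day (adjusted p 0.041 in edgeR) was lost without any 1 of the 4 libraries (0.11 to 0.19). Most of the negative differences were genes that had risen the day before, 114 of the 141, while 47 of the 56 positive ones had fallen. The change over the day before is subtracted in this difference, so the choice of genes largely sets these shares. Of these 114, 62 did not pass the test over the last day, 12 rose again and the others fell. Prlr is an example, with 0.138 CPM at E16.5, 60.2 CPM at E17.5 and 199 CPM at E18.5. Cyp2c40 is another, with 7.99 CPM, then 441 and 402 CPM, then 626 and 765 CPM.

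**Figure D5:**
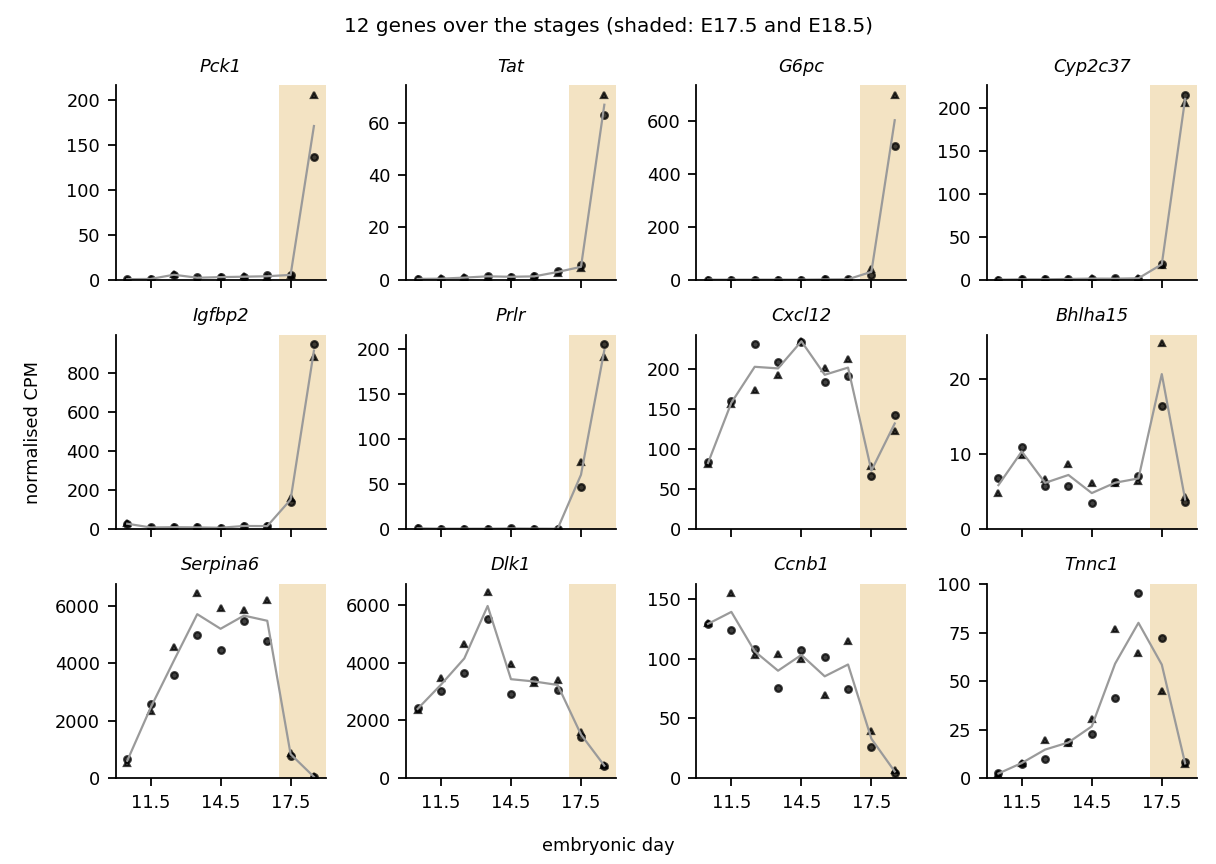
CPM on linear axes for 12 genes over all 9 stages, E10.5 to E18.5, circles and triangles standing for libraries 1 and 2, a grey line for the stage means and the last day shaded. Serpina6 falls from a mean of 5490 CPM at E16.5 to 41.9 CPM at E18.5, and Pck1 rises from 5.20 to 171 CPM over the shaded day alone.

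By list, the cell cycle fell on both days and the P450 enzymes rose on both. Over the day before, 31 of 32 mitosis genes and 30 of 32 DNA replication genes fell, and 14 of 20 P450 genes rose and 1 fell. Of all 15275 genes tested, 900 rose and 1101 fell over that day, against 470 and 678 over the last day. Gluconeogenesis and glycogen genes had 8 of 14 rising over the day before and 3 over the last day. Whether these counts differ between days was not tested.

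Picked single DLK+ cells of E17.5 gave a view of the starting stage in 35 cells of 4 sets, summed by set. Serpina6 measured 769 to 1320 CPM, G6pc 33.2 to 64.7 CPM and Prlr 57.8 to 95.7 CPM over the 4 sets, which were normalised apart from the bulk libraries and amplified by another protocol, so the levels are not compared with them. Pck1 measured 32.7, 12.6, 0 and 4.12 CPM and Serpina3k 0.118, 610, 5.91 and 0 CPM, but reads of Pck1 came from 8 and those of Serpina3k from 3 of the 35 cells, so a few cells carry these values. No single cells of E18.5 were analysed here.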

How the data were processed

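The members and gene lists were chosen with earlier results of these data known. Per the submitters' processing notes, reads were handled with TopHat2 2.1.0, Bowtie2 and HTSeq 0.6.0 on GRCm38/mm10. The deposited table holds raw read counts per gene, with no normalization by the authors, for 40824 genes and 92 spike-ins (no reads in bulk). Whether counting used strand is not given in the sources used here, so overlapping antisense genes cannot be told apart.

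For all 18 libraries edgeR 4.0.16 (R 4.3.3) tested the counts (TMM, filterByExpr with a minimum count of 10, glmQLFit and glmQLFTest, stage as the term, 9 residual degrees of freedom), with Benjamini-Hochberg adjustment over 15275 genes. SE is the size of the log2 change over the root of its F statistic. Normalised libraries equal the total times the TMM factor. DESeq2 1.42.0 was an alternative. The test was tried on simulated data. Positions are from GENCODE M21.

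Named are, among changed genes of at least 10 CPM without overlap (predicted, mitochondrial, haemoglobin genes left out), the 15 largest log2 rises and falls, 8 largest CPM rises and falls, 6 largest positive and negative differences between days, up to 6 changed and 2 other members of each list, and marker genes. G6pc, Bhlha15 and Hsd3b1 were chosen for the comparison of days after their values were seen. The 30 pathway and 9 marker lists hold 585 genes. Results for a withheld item are not reported here.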

Additional observations from a re-analysis of the deposited data

Results flagged for a closer look

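The change over the last day differed from the change over the day before, by a test of the difference in edgeR, for 56 genes that were more positive and 141 that were more negative. By the naming rule 12 of them are given with their difference on the log2 scale. The positive differences were 4.58 for Pck1, 4.51 for Susd4, 3.20 for Dock8, 3.03 for Tat, 2.67 for Hes1 and 2.33 for Cxcl12. Hes1, a Notch target, had a mean of 16.3 CPM at E16.5, 5.46 and 5.55 CPM at E17.5 and 8.34 and 15.52 CPM at E18.5. Its difference lost its call without E17.5 library 1, E17.5 library 2, E18.5 library 2 or E16.5 library 1 (adjusted p up to 0.27), and that of Dock8 without E17.5 library 1 (adjusted p = 0.18).

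The negative differences were −9.71 for Mchr1, −9.58 for Prok1, −6.92 for Prlr, −6.05 for Ikzf4, −5.46 for Serpina4-ps1 and −5.00 for Cyp2c40. At E16.5 Prok1 had no reads, Mchr1 a mean of 0.0277 CPM, Prlr 0.138 CPM, Ikzf4 0.455 CPM, Serpina4-ps1 0.526 CPM and Cyp2c40 7.99 CPM, so fitted sizes for those near 0 depend on the prior count and are no bounds. Mchr1, a receptor for melanin-concentrating hormone, measured 23.6 and 22.7 CPM at E17.5 and 14.4 and 21.7 CPM at E18.5. Prok1, a secreted prokineticin, measured 6.67 and 8.68 CPM and then 12.9 and 10.46 CPM, and its difference lost its call without either E17.5 library, E18.5 library 2 or E16.5 library 2 (adjusted p up to 0.097). Ikzf4, a zinc finger transcription factor, had means of 0.455 CPM at E16.5, then 11 and 13.2 CPM, then 4.35 and 5.18 CPM. The other 4 negative differences and that of Ikzf4 kept their calls with each of the 6 libraries left out.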

How the results depend on the processing

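The 1148 changed genes became 1619 with DESeq2, 1662 without a filter, 1129 with RLE size factors, 1246 with the GC trend removed and 545 when only the 4 libraries were fitted (57.2% of them rises, against 40.9%). Leaving out 1 library gave 421 to 751. The 197 differences between days became 612 with DESeq2, 881 without a filter and 63 with only the 3 stages fitted, and 26 to 260 with 1 library left out (the E16.5 libraries were added as a choice after seeing the data). The fits of fewer libraries have fewer degrees of freedom and take the spread from other stages. Over genes, the log2 ratio of the 2 libraries of a stage had an SD of 0.514 at E17.5 and 0.54 at E18.5. Over the stages it ran from 0.259 at E10.5 to 0.557 at E13.5. The part of either in these counts was not tested. With 1 library left out, the lone library of its stage is assumed to vary like the others. Same-numbered libraries of E17.5 and E18.5 did not deviate together (r = 0.002 across genes), nor did those of E16.5 with either (r = −0.075 and −0.042). Over all pairs of stages r ran from −0.359 (E12.5 and E17.5) to 0.314 (E12.5 and E13.5). Whether same-numbered libraries share a litter or batch was not tested. A replicate block gave 1004 changed genes and 165 differences, and 1128 and 201 with GC removed as well. Of 122 named genes that changed, 57 did so under every alternative. The median of all genes shifted by at most 0.03 between scalings. Depth limits genes with few reads, such as Chac1 with 16 reads at E17.5.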
